A study of Mus musculus with 56 samples.

Results

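The genes described here are 10 well-known targets of the transcription factor p53, namely Cdkn1a, Btg2, Gadd45a, Ccng1, Mdm2, Bax, Phlda3, Trp53inp1, Sesn2 and Eda2r. They were listed by name, with no threshold on a measured value but with earlier results of these data known, from 20018 genes that could be named on the array. All 10 had at least 1 probe, and 9 were tested. Eda2r, which encodes a death-domain receptor of the tumour necrosis factor receptor family, was not well above background on any of the 56 arrays with either of its 2 probes, so no level or fold change is given for it.

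Expression was measured on 2-colour arrays in lung, liver and forestomach of male MutaTMMouse animals, a transgenic strain that carries a lacZ mutation reporter, at about 14 weeks of age. Controls (D0) received the olive oil vehicle by daily gavage for 28 days, and the other groups received chrysene in the same oil, D1 at 17.5, D2 at 50 and D3 at 150 mg/kg-bw/day. Tissues were taken 72 h after the last dose, and every group shared the strain, the reporter and the vehicle. There were 5, 5, 3 and 5 lung arrays at D0, D1, D2 and D3, and 5, 5, 4 and 5 arrays for each of liver and forestomach. Each array compared the RNA of 1 mouse with a common reference RNA pooled from mouse cell lines, and the values below are log2 ratios of tissue over reference, in which 0 is the level in the reference. In such bulk samples fewer cells of a type and less RNA per cell cannot be told apart.

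p53 is held at a low level in unstressed cells and accumulates when DNA is damaged, after which it activates genes that pause the cell cycle, assist repair or start apoptosis. Mdm2, a ubiquitin ligase that marks p53 for degradation, is itself a target and closes a feedback loop. Chrysene is a polycyclic aromatic hydrocarbon whose metabolites can form DNA adducts, so transcripts of this pathway are a common readout of genotoxic exposure.

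p53 binds DNA as a tetramer, and each pair of subunits contacts a half-site of known consensus, so the bases before the start of each member were searched for it. The half-site consensus reads the same on both strands. A match lay within the 250 bases before an annotated gene start in 5 of 9 members with a listed window, against 8.2% of 27025 genes with such windows. The windows below, from RefSeq on GRCm38.p6, are the 5 that hold a match and that of Sesn2, shown because it was the one member that passed the test of dose. Each is written 5′ to 3′ on the strand of the gene, and capitals mark matches to the p53 half-site.
Cdkn1a, chr17:29090729-29090978, + strand, the first of 2 listed starts: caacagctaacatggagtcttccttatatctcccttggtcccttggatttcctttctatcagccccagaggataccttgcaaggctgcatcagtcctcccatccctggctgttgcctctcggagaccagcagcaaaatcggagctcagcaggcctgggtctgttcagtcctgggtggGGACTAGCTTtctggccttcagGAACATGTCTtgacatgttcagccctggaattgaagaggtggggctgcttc
Ccng1, chr11:40755287-40755536, - strand: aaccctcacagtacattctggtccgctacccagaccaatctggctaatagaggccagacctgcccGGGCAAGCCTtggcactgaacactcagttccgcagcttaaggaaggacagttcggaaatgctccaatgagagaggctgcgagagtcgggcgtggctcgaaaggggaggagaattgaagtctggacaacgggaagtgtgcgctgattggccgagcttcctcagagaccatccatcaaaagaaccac
Mdm2, chr10:117710759-117711008, - strand: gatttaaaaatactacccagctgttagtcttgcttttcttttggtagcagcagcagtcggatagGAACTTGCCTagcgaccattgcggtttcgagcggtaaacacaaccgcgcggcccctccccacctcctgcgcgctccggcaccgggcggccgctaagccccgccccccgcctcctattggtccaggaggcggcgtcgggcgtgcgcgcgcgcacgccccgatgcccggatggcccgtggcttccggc
Bax, chr7:45466899-45467148, - strand: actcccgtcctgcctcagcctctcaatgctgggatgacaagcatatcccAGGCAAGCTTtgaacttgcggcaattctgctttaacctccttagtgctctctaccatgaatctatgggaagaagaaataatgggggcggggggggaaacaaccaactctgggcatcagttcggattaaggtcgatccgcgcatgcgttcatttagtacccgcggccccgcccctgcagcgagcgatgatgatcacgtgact
Gadd45a, chr6:67037408-67037657, - strand: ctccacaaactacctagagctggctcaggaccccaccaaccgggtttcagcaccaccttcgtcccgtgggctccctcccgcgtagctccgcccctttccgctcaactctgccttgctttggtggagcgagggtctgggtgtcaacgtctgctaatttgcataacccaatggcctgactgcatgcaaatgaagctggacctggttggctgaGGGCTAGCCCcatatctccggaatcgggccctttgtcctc
Sesn2, chr4:132510457-132510706, - strand: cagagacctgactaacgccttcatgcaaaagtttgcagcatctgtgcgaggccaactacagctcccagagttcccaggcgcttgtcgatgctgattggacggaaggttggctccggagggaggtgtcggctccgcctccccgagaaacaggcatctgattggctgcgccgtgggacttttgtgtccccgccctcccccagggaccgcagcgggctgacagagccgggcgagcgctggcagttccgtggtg
Cdkn1a held 2 matches, which began 73 and 51 bases before the start, and the second of its listed starts held none. The matches of Ccng1, Mdm2 and Bax began 185, 186 and 201 bases before the start, and that of Gadd45a began 40 bases before it. The windows of Phlda3, Btg2, Sesn2 and Eda2r held no match. A match is a description of the letters in the window and not evidence of binding.

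On the arrays, 49% to 56.7% of spots were well above background in lung, 34.5% to 46.4% in liver and 18.9% to 51.7% in forestomach, where slide 1 held the 7 highest arrays (40.4% to 51.7%). The tissue labels were met by their markers, with all 7 alveolar type 2 genes well above background on every lung array and all 10 hepatocyte genes on every liver array. In forestomach 9 to 11 of 11 keratinocyte genes were well above background, and the mean of 9 glandular stomach genes ran from -3.43 to 2.75 relative to D0 on a log2 scale. The lung libraries of mice 17 and 19 at D3 stood apart, since their 12 skeletal muscle genes averaged 6.38 and 6.20 above the D0 mean and their 11 keratinocyte genes averaged 3.49 and 3.90 above it. On the other 3 lung arrays at D3 these lists lay between -0.18 and 0.22 and between -0.04 and 0.13. Adipocyte genes averaged 2.41 and 2.37 above the D0 mean in mice 17 and 19, and 8 lymphocyte genes averaged 0.02 and 1.22 above it. Over the lung dose groups, the 4 adipocyte genes tested had a median log2 change of 0.96 at D2 and 1.63 at D3, and the 8 lymphocyte genes had -0.09 and 0.45, with 0 genes of either list called. Array position on the slide followed the dose group, with the column number 1 above the dose step on 50 of 56 arrays, so dose and column cannot be told apart.

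To ask whether the p53 targets responded to chrysene, each dose was compared with D0 in each tissue using limma. A gene passed when its false discovery rate, adjusted across every probe tested in that tissue, was 0.05 or less and its change was 1.5-fold or more. Sesn2, which encodes sestrin 2, a stress-induced inhibitor of mTORC1 signalling, was lower in lung at D3 and was the only one of 9 members to pass in any of the 9 comparisons. The classical targets Cdkn1a, Mdm2, Bax and Phlda3 passed at no dose in any tissue. At D3 the median log2 fold change of the members was -0.06 in lung, -0.04 in liver and -0.05 in forestomach, beside -0.026, -0.007 and -0.002 over all probes tested.

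In lung, 0 members passed at D1 or D2 and 1 passed at D3, where 0%, 0% and 0.127% of 31496 tested probes passed. With the unadjusted P ≤ 0.05 alone, 0, 1 and 3 members were counted, against 5.88%, 6.12% and 16.1% of all tested probes. In liver 0 members passed at any dose, as did 0% of 24769 probes at D1, 0% at D2 and 0% at D3, and at an unadjusted p there were 0, 1 and 1 members against 3.61%, 3.78% and 4.78%. In forestomach 0 members passed, against 0%, 0% and 0.00727% of 27527 probes, and at an unadjusted p there were 0, 0 and 0 members against 4.17%, 7.54% and 9.24%. These counts are from limma, and the study's Fs statistic gave the same count of members in each of the 9. With dose as a linear trend, 1 member passed in lung (0.168% of all probes), 0 in liver (0%) and 0 in forestomach (0.04%). The 95% interval of the D3 change lay inside 1.5-fold in either direction for 6 of 9 members in lung, 6 in liver and 3 in forestomach.

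**Figure D1:**
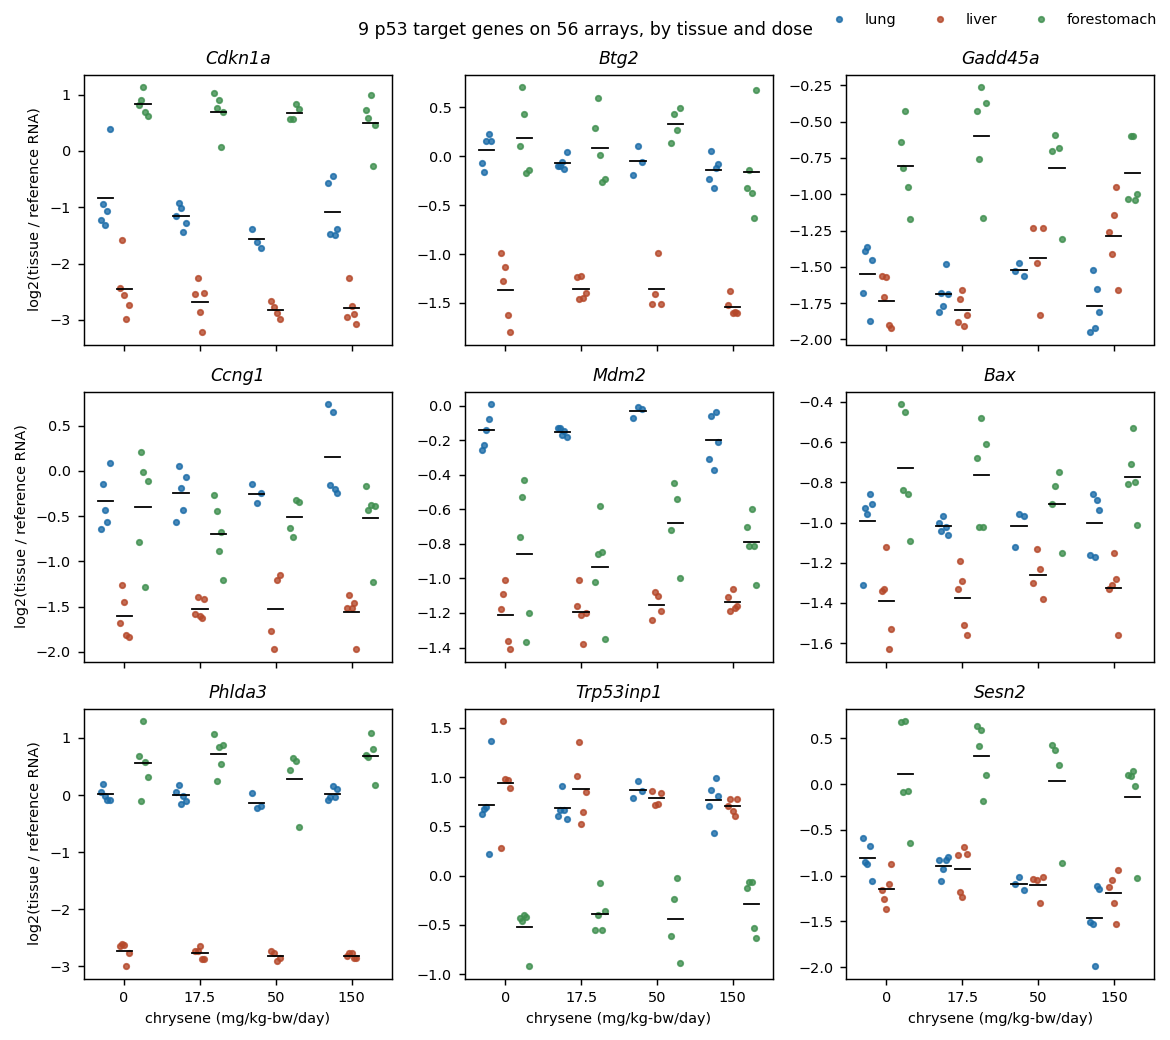
log2 ratio of tissue over reference RNA (y axes, each with its own range) for 9 p53 target genes against chrysene dose in mg/kg-bw/day (x axes), with 1 point per array coloured by tissue and black lines for group means. The liver points of Phlda3 lie far below those of both other tissues at every dose, while the dose groups of a tissue overlap for most genes.

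**Figure D2:**
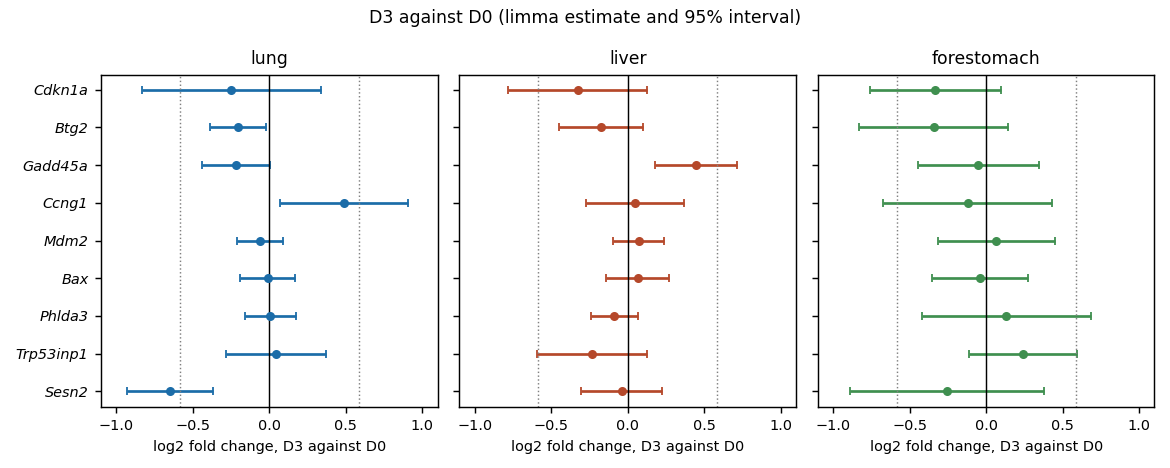
log2 fold change at D3 against D0 (x axes) for 9 members (rows) in each tissue, as limma estimates with 95% intervals; dotted lines mark 1.5-fold. The intervals of Sesn2 and Btg2 in lung lie wholly below 0, and those of Ccng1 in lung and Gadd45a in liver lie wholly above it, but Sesn2 alone passed the adjusted test.

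Sesn2 in lung stood at -0.59, -0.85, -1.06, -0.87 and -0.68 in the 5 mice of D0. It was -0.83, -1.06, -0.93, -0.83 and -0.80 at D1 and -1.16, -1.09 and -1.01 at D2. At D3 it was -1.11, -1.51, -1.53, -1.99 and -1.15. All 5 mice of D3 lay below all 5 of D0, with mouse 19 the lowest, whereas D1 and D2 overlapped with D0. Sesn2 was the 1 of 9 members whose lung groups did not overlap at D3, as was the case for 2.61% of all tested probes. The log2 fold change at D3 was -0.65 (SE 0.13; 95% interval -0.93 to -0.37; limma, adjusted p = 0.0466), a 1.57-fold lower level, and the fitted D0-to-D3 change of the trend was -0.65 (adjusted p = 0.023).

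The adjusted p of Sesn2 lay close to the limit. Without mice 17 and 19, whose muscle and keratinocyte genes were high, its change at D3 was -0.46 with an unadjusted p of 0.000844 and an adjusted p of 0.215 in limma. The remaining mice of D3 (16, 18 and 20) were still all below D0, and the part of muscle, keratinocyte, adipocyte or lymphocyte RNA in the value of mice 17 and 19 was not tested. Leaving out mouse 1, 2, 4, 5, 17, 18 or 19 alone also took the adjusted p above the limit (0.0647 to 0.122), with log2 fold changes of -0.66 to -0.52. The trend missed the limit without mouse 1 (adjusted p = 0.0589), mouse 4 (0.0583) or mouse 17 (0.064), and without mouse 19 it was -0.52, below 1.5-fold. Within slides 1, 2 and 3 the difference of D3 from D0 was -0.79, -0.89 and -0.26, and with the slide as a block it was -0.63 (adjusted p = 0.0701). With the array column as a covariate it was 0.16 (limma, unadjusted p = 0.748, adjusted p = 1). The column followed the dose group on 16 of 18 lung arrays, so this fit can hardly separate them and its sign carries little information.

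Sesn2 passed in neither of the other tissues. In liver its values were -0.87, -1.16, -1.26, -1.36 and -1.09 at D0 and -1.12, -1.05, -1.30, -1.53 and -0.94 at D3. These groups overlapped throughout, and the log2 fold change was -0.04 (SE 0.13). In forestomach Sesn2 ranged from -0.64 to 0.69 at D0 and from -1.03 to 0.14 at D3, with a log2 fold change of -0.26 (SE 0.30; 95% interval -0.89 to 0.38). That change was -0.035 without mouse 19 and -0.44 without mouse 2. Within forestomach slides 1, 2 and 3 the difference was -0.17, -0.58 and -0.16. The difference between the lung and liver effects was -0.61 (95% interval -1.21 to -0.01; limma, adjusted p = 0.941) and that between lung and forestomach was -0.39 (95% interval -0.997 to 0.213; adjusted p = 0.658), so the tissues were not shown to differ.

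**Figure D3:**
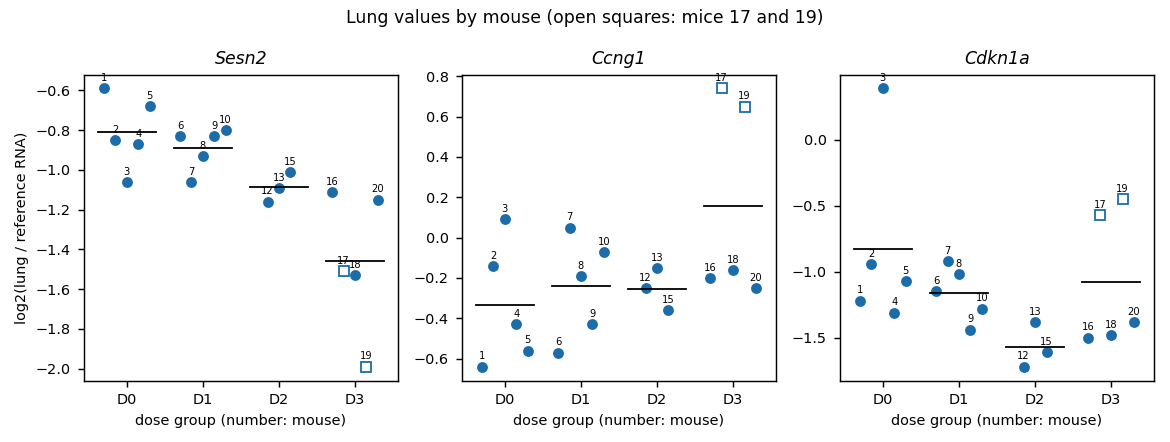
log2 ratio of lung over reference RNA (y axes) for Sesn2, Ccng1 and Cdkn1a by dose group, with each point numbered by mouse, lines for group means, and mice 17 and 19 as open squares. For Sesn2 all 5 mice of D3 lie below all 5 of D0, and mice 17 and 19 are the 2 highest of D3 for both Ccng1 and Cdkn1a.

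Cdkn1a encodes p21, the cyclin-dependent kinase inhibitor that carries out p53-dependent arrest. In lung it was -1.22, -0.94, 0.39, -1.31 and -1.07 at D0 and -1.5, -0.57, -1.48, -0.45 and -1.38 at D3. Control mouse 3 was far above the other 4, and mice 17 and 19 were above the other 3 of D3. The difference of D3 from D0 was -0.25 on the log2 scale (SE 0.28; adjusted p = 0.702), which was 0.06 without mouse 3 (adjusted p = 0.925) and -0.63 without mice 17 and 19 (adjusted p = 0.476). At D2 the 3 mice stood at -1.72, -1.38 and -1.61, all below the 5 of D0. The share of all probes with such a separation at D2 was not computed. The log2 fold change at D2 was -0.74 (SE 0.32; adjusted p = 0.767), which was -0.44 without mouse 3. A second probe for Cdkn1a, from another RefSeq transcript, was well above background on 17 of 18 lung arrays and had a D3 change of -0.11 (SE 0.07).

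In liver Cdkn1a stood at -2.74, -2.44, -1.58, -2.55 and -2.98 at D0 and -2.95, -2.26, -2.76, -2.89 and -3.08 at D3. Mouse 3 was again the highest, and the groups overlapped. The D3 change was -0.33 (SE 0.22; adjusted p = 1 in limma), which was -0.11 without mouse 3 and -0.46 without mouse 17. In forestomach Cdkn1a was 0.81, 0.62, 0.90, 1.14 and 0.69 at D0 and 0.72, 0.59, 0.99, 0.47 and -0.27 at D3, where mouse 20 was lowest, and the log2 fold change was -0.33 (SE 0.20; adjusted p = 0.684), which was -0.14 without mouse 20. With arrays centred on their medians without loess it was 0.14 relative to the median of all probes. Cdkn1a passed in no tissue at D3.

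Btg2, an antiproliferative gene, and Gadd45a, a growth arrest and DNA damage inducible gene, showed small changes. Btg2 in lung was -0.07, -0.16, 0.16, 0.16 and 0.23 at D0 and -0.12, -0.23, 0.05, -0.32 and -0.08 at D3. All 5 mice of D3 lay below the D0 mean but overlapped with D0. The log2 fold change was -0.21 (SE 0.09; adjusted p = 0.265), and -0.12 without mice 17 and 19 (limma, adjusted p = 0.717). It was -0.18 (SE 0.13) in liver at D3, with -0.08 without mouse 2 and -0.285 without mouse 1. In forestomach it was -0.34 (SE 0.23), with -0.21 without mouse 3 and -0.55 without mouse 19.

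Gadd45a in liver had the lowest unadjusted p of any member in that tissue. It was -1.92, -1.56, -1.71, -1.57 and -1.90 at D0, -1.88, -1.83, -1.72, -1.66 and -1.91 at D1 and -1.23, -1.47, -1.23 and -1.83 at D2. At D3 it was -1.26, -1.41, -1.14, -0.95 and -1.66. Of the 5 mice of D3, 4 lay above all of D0, while mouse 20 overlapped with it. Its D3 change was 0.45 (SE 0.13; 95% interval 0.18 to 0.72), with an unadjusted p of 0.00262, rank 50 among 24769 probes, and an adjusted p of 0.969. Within liver slides 1, 2 and 3 the difference was 0.25, 0.22 and 0.60. In lung the change of Gadd45a was -0.22 (SE 0.10) and in forestomach -0.05 (SE 0.19), and the difference between the lung and liver effects was -0.67 (95% interval -1.09 to -0.24; adjusted p = 0.761).

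Ccng1 encodes cyclin G1, which takes part in the Mdm2 feedback. In lung it was -0.64, -0.14, 0.09, -0.43 and -0.56 at D0 and -0.20, 0.74, -0.16, 0.65 and -0.25 at D3. The mice above the D0 range were 17 and 19 only. The D3 change was 0.49 (SE 0.20; adjusted p = 0.248) and was 0.13 without mice 17 and 19 (adjusted p = 0.822). Within lung slides 1, 2 and 3 the difference was 1.13, 0.67 and 0.01, the 2 larger from the slides of mice 17 and 19. In liver and forestomach the D3 change of Ccng1 was 0.05 (SE 0.15) and -0.12 (SE 0.26). With 1 mouse left out they ran from -0.01 to 0.15 and from -0.34 to 0.06.

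Mdm2 was among the steadiest members. In lung it was -0.26, -0.23, 0.01, -0.14 and -0.08 at D0 and -0.04, -0.31, -0.06, -0.37 and -0.21 at D3, with a log2 fold change of -0.06 (SE 0.07; 95% interval -0.21 to 0.09). In liver it was -1.41, -1.18, -1.09, -1.01 and -1.36 at D0 and -1.11, -1.19, -1.06, -1.17 and -1.16 at D3, with a log2 fold change of 0.07 (SE 0.08; 95% interval -0.10 to 0.24). In forestomach, where the arrays spread more, its change was 0.07 (SE 0.18; 95% interval -0.32 to 0.45).

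Of the genes that act in apoptosis, Bax encodes the pore-forming protein of the mitochondrial pathway, Phlda3 an inhibitor of Akt, and Trp53inp1 a nuclear protein that acts with p53 under stress. At D3 the change of Bax was -0.01 (SE 0.09) in lung, 0.06 (SE 0.10) in liver and -0.04 (SE 0.15) in forestomach. That of Phlda3 was 0.01 (SE 0.08), -0.09 (SE 0.07) and 0.13 (SE 0.26) in the same order, and the last ran from -0.03 to 0.32 with 1 mouse left out. All dose groups of both genes overlapped with D0 in every tissue.

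Trp53inp1 in liver was 0.89, 0.28, 1.57, 0.98 and 0.97 at D0 and 0.71, 0.78, 0.66, 0.60 and 0.78 at D3. Control mice 2 and 3 were the lowest and highest of all 19 livers, and D3 lay between them. The D3 change in liver was -0.23 (SE 0.17), with -0.07 without mouse 3 and -0.395 without mouse 2. It was 0.04 (SE 0.15) in lung and 0.24 (SE 0.17) in forestomach, which ran from -0.08 to 0.21 and from 0.14 to 0.33 with 1 mouse left out. A second probe for Trp53inp1 gave -0.18 (SE 0.10) in lung, -0.12 (SE 0.13) in liver and 0.06 (SE 0.20) in forestomach, where it was well above background on 7 of 19 arrays, so the 2 probes differed in sign in lung.

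The rest of the pathway was read from lists of further targets and of regulators. Of 32 further p53 targets, 31, 27 and 30 were tested in lung, liver and forestomach, and 0 passed at D3. Of 14 regulators of p53, 13, 12 and 13 were tested and 0 passed at D3. The median D3 change of the further targets was -0.03, 0.03 and 0.06, and that of the regulators -0.06, 0.01 and -0.08. Among the targets with the smallest unadjusted p, Gdf15, a stress cytokine, had a D3 change of -0.67 (SE 0.22; adjusted p = 0.178; -0.83 to -0.42 with 1 mouse left out) and Ercc5, a nucleotide excision repair nuclease, one of -0.30 (SE 0.09; adjusted p = 0.151) in lung. In liver Aen, an apoptosis-enhancing nuclease, had a change of 0.31 (SE 0.13; adjusted p = 0.988) and Sesn1, a paralogue of Sesn2, one of 0.13 (SE 0.07; adjusted p = 1).

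In forestomach Aen stood at -1.04 ± 0.18 (SD, n = 5) at D0 and -0.43 ± 0.25 (n = 5) at D3, with all 5 arrays of D3 above all 5 of D0, as for 1.39% of all tested forestomach probes. The D3 change of Aen was 0.61 (SE 0.13), with an unadjusted p of 0.000199 and an adjusted p of 0.138 in limma. Ercc5 followed with 0.32 (SE 0.15; adjusted p = 0.523). In forestomach, as in liver (0.739% of all tested probes), 0 of 9 members had D3 and D0 groups that did not overlap.

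Of the regulators, Mdm4, the relative of Mdm2 that masks the activation domain of p53, stood at 0.94 ± 0.29 (SD, n = 5) in lung at D0 and 0.31 ± 0.26 (n = 5) at D3. Its D3 change was -0.64 (SE 0.15; limma, adjusted p = 0.0808), and its dose trend in lung passed (-0.64, adjusted p = 0.0408). Without mouse 3 its D3 change was -0.75 (adjusted p = 0.0306), and without mice 17 and 19 it was -0.47 (adjusted p = 0.38). Ep300, a histone acetyltransferase and coactivator of p53, had a change of -0.24 (SE 0.12) in lung. The regulators with the smallest p elsewhere were the acetyltransferase Kat5 (0.16, SE 0.07) and the DNA-dependent protein kinase Prkdc (0.11, SE 0.08) in liver and the kinase Atr (0.35, SE 0.19) and the deubiquitinase Usp7 (0.26, SE 0.13) in forestomach, with adjusted p of 0.56 to 1.

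More members differed between tissues than between doses, as did more of all probes. Each tissue filled slides of its own, so tissue and slide cannot be told apart in these comparisons. In vehicle mice 5 of 9 members differed between lung and liver (46% of 32854 probes did), 5 between lung and forestomach (37.6% of 32699) and 8 between liver and forestomach (41% of 29775). Relative to the reference, liver had the lowest mean for 8 of the 9 members in the authors' table, and forestomach had the lowest for Trp53inp1. With arrays centred on their medians without loess, liver lay above forestomach for Mdm2 (1.01) and Bax (0.32), relative to the median of all probes.

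Cdkn1a at D0 was -2.46 ± 0.53 (SD, n = 5) in liver, -0.83 ± 0.70 in lung and 0.83 ± 0.20 in forestomach, and no 2 tissues overlapped. The forestomach level was 9.80-fold that of liver (liver minus forestomach -3.29 on the log2 scale, SE 0.25) and 3.16-fold that of lung, and lung was 3.1-fold above liver. Phlda3 was -2.73 ± 0.17 in liver, 0.02 ± 0.12 in lung and 0.56 ± 0.52 in forestomach. It was 9.74-fold higher in forestomach and 6.70-fold higher in lung than in liver, while lung and forestomach overlapped and differed by less than 1.5-fold (log2 difference -0.54). Without mouse 2 or mouse 3 that difference was -0.65 or -0.68 and passed.

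Btg2 at D0 was -1.36 ± 0.34 in liver, 0.06 ± 0.17 in lung and 0.19 ± 0.38 in forestomach. The lung minus forestomach difference did not pass (-0.12 on the log2 scale, 95% interval -0.46 to 0.21), and both tissues were above liver, by 2.69-fold and 2.93-fold. Ccng1 was also lowest in liver, with -1.61 ± 0.25 in liver, -0.40 ± 0.62 in forestomach and -0.33 ± 0.30 in lung. Its lung level was 2.42-fold and its forestomach level 2.32-fold that of liver, although forestomach mouse 5 (-1.28) lay just below the highest liver (-1.26). Between lung and forestomach Ccng1 did not pass (limma, adjusted p = 0.815).

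Mdm2 was highest in lung at -0.14 ± 0.11, with -0.86 ± 0.41 in forestomach and -1.21 ± 0.17 in liver. Lung was 2.10-fold above liver and 1.65-fold above forestomach, the latter falling below 1.5-fold without mouse 5 (log2 difference 0.58). Bax lay within a narrow range, at -0.73 ± 0.29 in forestomach, -0.995 ± 0.182 in lung and -1.39 ± 0.20 in liver, and passed between liver and forestomach alone (1.58-fold). Without mouse 1 that difference was -0.55, below 1.5-fold.

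Gadd45a at D0 was -0.80 ± 0.29 in forestomach, 1.68-fold above lung (-1.55 ± 0.22) and 1.90-fold above liver (-1.73 ± 0.17), and the difference between lung and liver did not pass (log2 difference 0.18, 95% interval -0.12 to 0.48; adjusted p = 0.282). Sesn2 was 0.11 ± 0.57 in forestomach, 1.90-fold above lung (-0.81 ± 0.18), with which it overlapped, and 2.39-fold above liver (-1.15 ± 0.18). Between lung and liver Sesn2 did not pass (log2 difference 0.34, 95% interval -0.09 to 0.76; limma, adjusted p = 0.157). Trp53inp1 was 0.94 ± 0.46 in liver and 0.72 ± 0.41 in lung, with -0.52 ± 0.22 in forestomach, 2.76-fold and 2.37-fold lower. Its lung minus liver difference of -0.22 (95% interval -0.56 to 0.13; limma, adjusted p = 0.259) did not pass.

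Many of these differences depend on the dye correction. With arrays centred on their medians without loess, the median over all tested probes moved to 0.62 for lung minus liver, 0.95 for lung minus forestomach and 0.17 for liver minus forestomach, from 0.03, 0.00 and -0.04. Relative to these medians the 5 differences between lung and liver kept their direction, while those of Gadd45a (0.59) and Sesn2 (0.20) between lung and forestomach and of Bax (0.32) between liver and forestomach turned. Of the differences between lung and liver that had not passed, those of Sesn2 (0.86; limma, adjusted p = 0.00428), Gadd45a (0.92), Bax (0.91) and Trp53inp1 (0.42; limma, adjusted p = 0.0479) did so under this centring, that of Trp53inp1 with the sign turned. Between lung and forestomach Ccng1 (1.36), Btg2 (1.13), Bax (1.06) and Phlda3 (0.64) came to pass (limma, adjusted p of 0.000283, 0.000418, 0.000815 and 0.0146), the last 3 with the sign turned. The difference of Cdkn1a between lung and forestomach no longer passed (-0.20; limma, adjusted p = 0.231). Between liver and forestomach Ccng1 (-0.31), Gadd45a (-0.18), Sesn2 (-0.50), Btg2 (-0.76) and Bax no longer passed (limma, adjusted p of 0.873, 0.993, 0.616, 0.393 and 0.508). These p and calls were computed with the shift of all probes left in. Relative to the median the difference of Trp53inp1 between lung and liver (0.42) was below 1.5-fold. Cdkn1a and Phlda3 stayed lower in liver than in forestomach, at -2.15 and -2.06 relative to the median.

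For the D3 effect itself, 0 of 9 members differed between any 2 tissues in limma, against 0%, 0.703% and 0.0772% of probes for lung against liver, lung against forestomach and liver against forestomach. With the same 3 pairs, the smallest adjusted p of a member was 0.761, 0.39 and 0.40, for Gadd45a, Gadd45a and Ccng1, in the order lung against liver, liver against forestomach and lung against forestomach.

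Since the tissues came from the same mice, it was asked whether a mouse that was high for a gene in 1 tissue was high in another. Deviations from the dose-group means were correlated, with p from 100000 shuffles of mice within dose groups. In lung and liver of 18 mice r was above 0 for 7 of 9 members, with a median of 0.37, beside 61.8% and 0.09 over 23411 probes. No member passed after adjustment over all probes (0.466% of probes did), and 3 members had an unadjusted p of at most 0.05 with r above 0, against 7.91% of probes.

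These 3 were Cdkn1a, Ccng1 and Sesn2. Cdkn1a had r = 0.72 (permutation p = 0.0179, adjusted p = 0.371) and rho = 0.56 (permutation p = 0.0257), with 0.72 within slides and 0.61 without mice 3 and 19. Ccng1 had r = 0.47 (permutation p = 0.025, adjusted p = 0.425) and rho = 0.49, with 0.43 within slides and 0.41 without mice 17 and 19. Sesn2 had r = 0.54 (permutation p = 0.0356, adjusted p = 0.483) and rho = 0.40, but 0.18 within slides and 0.38 without mice 16 and 19, so its relation rests on slides and on those mice. Trp53inp1 had r = 0.53 (permutation p = 0.128), with control mouse 3 the highest in both tissues.

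Between lung and forestomach of 18 mice, and between liver and forestomach of 19 mice, 0 members passed (0% and 0% of 26324 and 22521 probes). In each pair 1 member had an unadjusted p of at most 0.05 with r above 0, against 4.44% and 4.84% of probes, and in both it was Ccng1. Its r was 0.52 (permutation p = 0.0437, adjusted p = 0.624; rho 0.42) between lung and forestomach, with 0.59 within slides and 0.68 without mice 17 and 19. It was 0.54 (permutation p = 0.0159, adjusted p = 0.574; rho 0.50) between liver and forestomach, with 0.23 within slides and 0.60 without mice 12 and 20. The 3 values of Ccng1 share mice and are not independent of each other.

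**Figure D4:**
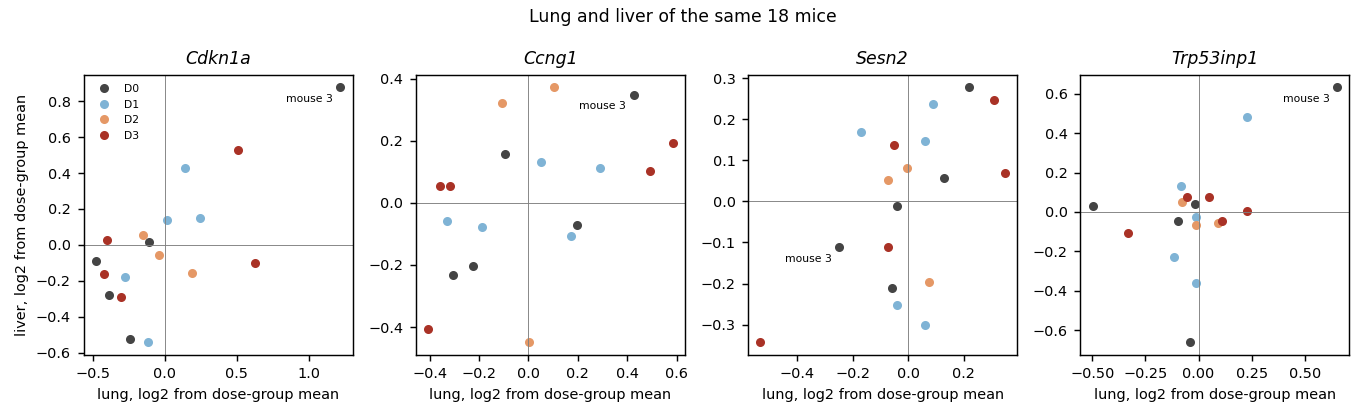
Deviation from the dose-group mean on a log2 scale in liver (y axes) against lung (x axes) of the same 18 mice for Cdkn1a, Ccng1, Sesn2 and Trp53inp1, with points coloured by dose group. Control mouse 3 is the highest in both tissues for Cdkn1a (0.39 in lung and -1.58 in liver before centring) and for Trp53inp1.

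The members were also set against the mean of 10 glucocorticoid-responsive genes (Fkbp5, Tsc22d3 and others) and of 10 clock output genes (Dbp, Per1 and others) on the same arrays, again as deviations from dose-group means, giving 54 relations whose p were adjusted together. Mouse 3, the highest control for Cdkn1a and Trp53inp1 in lung and liver, was also the highest control for the glucocorticoid list, at 0.96 above the D0 mean in lung and 0.64 in liver. The part of circadian time or of stress hormones in these values was not tested. Cdkn1a in lung had r = 0.73 with the glucocorticoid list (n = 18, permutation p = 0.0143, adjusted p = 0.0965; rho 0.59), which was 0.77 within slides but 0.30 without mice 3 and 17, so that it rests on those mice. In forestomach (n = 19) the sign was opposite, r = -0.57 (permutation p = 0.0142, adjusted p = 0.0965; rho -0.54), with -0.45 within slides and -0.78 without mice 1 and 3.

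Of the 54 relations 5 passed at an adjusted p of at most 0.05. The share of all probes that follow these list means was not computed, so the count is not shown to be a trait of these genes. In liver (n = 19) Ccng1 rose with the clock list, r = 0.79 (permutation p = 0.00301, adjusted p = 0.0403; rho 0.72), with 0.71 within slides and 0.67 without mice 12 and 20. Trp53inp1 in liver rose with the glucocorticoid list, r = 0.71 (permutation p = 0.00265, adjusted p = 0.0403; rho 0.54), with 0.70 within slides, but r was 0.43 without mice 2 and 3, so the relation and its p rest in part on those mice. Sesn2 in liver fell against the clock list, r = -0.64 (permutation p = 0.00373, adjusted p = 0.0403; rho -0.56), but the value was -0.07 within slides, so the relation did not hold there.

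On the forestomach arrays 3 to 8 of the 10 clock genes were well above background, but the list mean used all 10. The part of signal brightness in the forestomach relations was not tested. In forestomach (n = 19) Trp53inp1 had r = 0.85 with the clock list (permutation p = 0.00032, adjusted p = 0.00864; rho 0.87), with 0.68 within slides and 0.77 without mice 12 and 15. Mdm2 had r = 0.74 with it (permutation p = 0.0001, adjusted p = 0.0054; rho 0.86), but 0.24 within slides, where the relation did not hold. Relative to the D0 mean, the clock list ranged at D0, D2 and D3 from -0.49 to 0.35, 0.29 to 1.37 and -0.07 to 0.71 in lung, from -0.27 to 0.48, 0.22 to 1.35 and -0.16 to 0.69 in liver, and from -0.31 to 0.20, -0.15 to 0.81 and 0.09 to 0.53 in forestomach. Its genes had median log2 changes of 0.66, 0.65 and 0.30 at D2 and of 0.17, 0.30 and 0.40 at D3 in the same order of tissues, with 0 genes called.

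**Figure D5:**
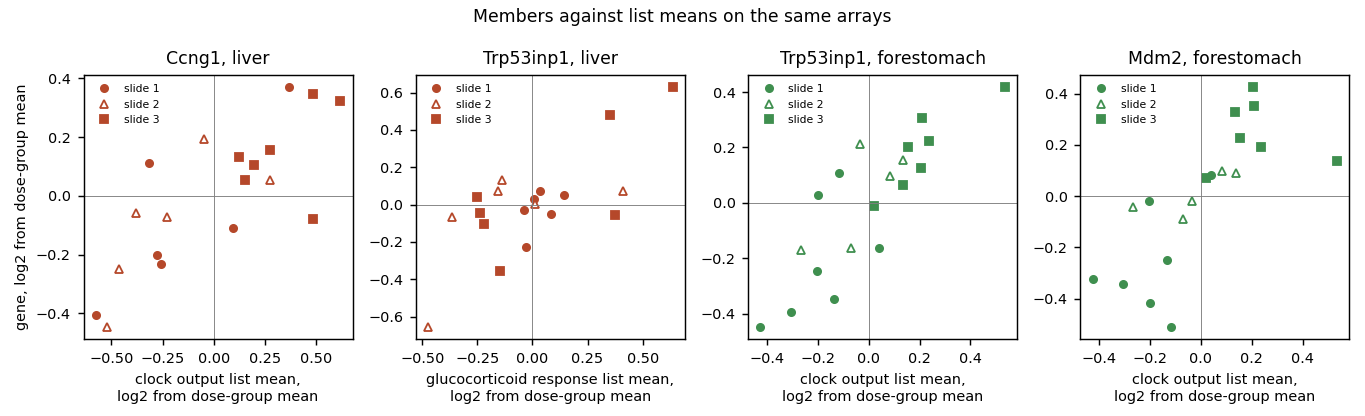
Deviation of a member from its dose-group mean (y axes, log2) against that of a list mean on the same array (x axes, log2) for the 4 relations named in the panels, with symbols for the 3 slides of the tissue. Ccng1 in liver (r = 0.79) and Trp53inp1 in forestomach (r = 0.85) rise along the list within slides, whereas for Mdm2 in forestomach the slides form separate groups along the list.

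The members were also set against each other. Over 36 pairs of members, r of the deviations from dose-group means was above 0 for 20 pairs in lung, 26 in liver and 27 in forestomach, with medians of 0.04, 0.30 and 0.46, and of 0.03, 0.15 and 0.09 within slides. These values describe arrays that share slides and a reference, and no p is given for them. The same values over pairs of other probes were not computed, so the counts are not shown to be a trait of these genes. In lung Cdkn1a and Ccng1 had the highest value (0.81; 0.81 within slides), and Sesn2 ran opposite to Ccng1 (-0.75; -0.80) and Cdkn1a (-0.68; -0.75). Mice 17 and 19, which stood apart, are among these lungs, and the order of the pairs changed over the 16 others. There Cdkn1a and Trp53inp1 had the highest value (0.76, from 0.34), ahead of Cdkn1a and Ccng1 (0.70), and Phlda3 and Btg2 had the lowest (-0.72), ahead of Ccng1 and Sesn2 (-0.67). Mdm2 moved from -0.09 to 0.55 with Cdkn1a and from 0.26 to -0.49 with Sesn2. In liver Mdm2 and Bax had the highest value (0.78) but 0.48 within slides, where Cdkn1a and Trp53inp1 were highest (0.69). In forestomach Bax and Gadd45a had the highest value (0.87; 0.80 within slides).

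Genes whose deviations were most like those of Cdkn1a, among probes well above background on all arrays of a tissue, were Chmp4c (0.87), Kcnj12 (0.82) and Ube2g2 (0.82) of 16638 probes in lung. In liver they were Arrdc2 (0.90), Tcim (0.89) and Arf5 (0.88) of 12612 probes. In forestomach they were Sucla2 (0.92), Gak (0.90) and Sec23ip (0.90) of 7060 probes. No gene was among the 3 nearest in more than 1 tissue, and none of the 9 was a member.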

How the data were processed

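RNA of 56 tissue samples (Cy5) was hybridised against a common mouse reference RNA (Cy3) on 2-colour arrays, with no dye swap, and scanner files were made with Feature Extraction 10.7.3.1 per the file headers. The authors deposited a table of log2 ratios of median signals, LOWESS-normalized within each array and without background subtraction, which was used as given. The deposited scanner intensity values and the flags of spots well above background gave probe filters, probe choice and alternatives. The table's array medians ran from -0.05 to -0.02, and its correlation with loess-normalized scanner ratios from 0.977 to 0.998. The authors' table does not itself state its direction, which was taken from the dyes.

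Probes were named by matching their RefSeq accessions to symbols of GRCm38.p6, which named 26413 of 55681 probes (47.4%). Per gene and tissue the probe with the highest mean Cy5 signal was kept, and for tissue comparisons the highest over all arrays. Probes well above background on at least 3 arrays of a tissue were tested. Each dose was compared with D0 using limma 3.58.1 (R 4.3.3), with 1 mean per dose group and 1 variance per probe in each tissue, Benjamini-Hochberg adjusted p over all tested probes, and limits of 0.05 and 1.5-fold. On data simulated with independent normal errors, limma recovered 94, 96 and 65 of 100 log2 changes of 1 at D3 in lung, liver and forestomach. The number of arrays limits the precision. Each array is 1 mouse.

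Tissue comparisons used 1 model of the 56 arrays in which each tissue and dose had its own mean. The labels give the mouse number of each array, so tissues of 1 number come from 1 animal. The median correlation of same-numbered deviations over all probes was 0.09, 0.01 and 0.05 for the 3 pairs of tissues. The members, the pathway lists and the named-gene rule (all members; further genes that passed at D3, or else the 2 with the smallest p per list and tissue; the 3 genes most like Cdkn1a per tissue) were chosen with earlier results of these data known. Alternatives were other normalizations, probe filters, a slide or column term, array weights, the study's Fs statistic with 100 residual shuffles, subsets of arrays, and a mouse block.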

Additional observations from a re-analysis of the deposited data

Results flagged for a closer look

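In 99 groups of 4 or 5 arrays, 9 had 1 array whose gap to its neighbour took up more of the group's range than Dixon's 95% critical value, where chance gives about 1 in 20. The share of the range is given for each. Cdkn1a in lung at D0 had mouse 3 highest at 0.39 (0.783). Ccng1 had mouse 20 lowest at D3 in liver at -1.97 (0.76) and also in forestomach at -1.23 (0.762). Bax in lung at D0 had mouse 1 lowest at -1.31 (0.783). Trp53inp1 in forestomach at D0 had mouse 2 lowest at -0.92 (0.896). Gadd45a in forestomach at D2 had mouse 12 lowest at -1.31 (0.854), and so did Sesn2 at -0.86 (0.829). Sesn2 had mouse 15 lowest in liver at D2 at -1.30 (0.873) and mouse 19 lowest in forestomach at D3 at -1.03 (0.867).

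In 2 of 81 combinations of member, dose and tissue pair, every mouse lay on one side of the D0 mean in 1 tissue and on the other side in another, as in 1.56% of 216768 such combinations over all probes tested in both tissues. Both were at D2, where the shares over all probes were 2.67% for lung and liver and 2.2% for liver and forestomach. Bax lay above the D0 mean in all 4 livers and below it in all 4 forestomachs, a difference of 0.30 between the effects on the log2 scale. Trp53inp1 lay above the D0 mean in all 3 lungs and below it in all 4 livers, a difference of 0.30. Neither difference was tested.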

How the results depend on the processing

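Of the members' calls against D0, that of Sesn2 in lung was the only one to change under the alternatives run. The number of members that passed at D3 in lung, 1, became 0 with scanner loess, median centring, normexp background correction, no filter on dim probes, the slide as a block, the array column as a covariate, array weights, only the 2 groups compared in the fit, and without mice 17 and 19. It ran from 0 to 1 with 1 mouse left out. The trend count in lung, 1, became 0 with median centring, the column, array weights and without mice 17 and 19, and ran from 0 to 1 with 1 mouse left out. The cause of these changes was not tested.

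With median centring, and the shift of all probes left in, 9, 8 and 3 members differed between lung and liver, lung and forestomach, and liver and forestomach at D0, in place of 5, 5 and 8, beside 46.5%, 57.8% and 22.5% of all probes. With 1 mouse left out the counts were 5, 4 to 6 and 7 to 8. Median centring moved all probes together, and before that shift is taken off the sign was opposite for 4, 2 and 6 of 9 D3 changes in lung, liver and forestomach, for 1, 6 and 2 differences at D0 in the order of the pairs above, and for 3, 3 and 7 D3 effects. Among them were Btg2 in lung at D3 (0.02), Trp53inp1 between lung and liver (1.04), Cdkn1a (0.76), Bax (2.02), Gadd45a (1.54), Phlda3 (1.59), Sesn2 (1.15) and Btg2 (2.08) between lung and forestomach, Mdm2 (1.19) and Bax (0.49) between liver and forestomach, and the Gadd45a D3 effect between liver and forestomach (-0.023). Relative to the median of all probes, Btg2 in lung at D3 (-0.09), Cdkn1a between lung and forestomach (-0.20) and the Gadd45a D3 effect (0.18) did not turn, and the others named did. Relative to it, 1, 0 and 5 of 9 D3 changes turned in lung, liver and forestomach and 3, 3 and 6 D3 effects, none of which had passed. With the array column as a covariate the lung D3 estimates of Ccng1 (-0.20), Sesn2 (0.16) and Mdm4 (0.16) had the opposite sign, with unadjusted p of 0.793, 0.748 and 0.781 in limma. The column followed the dose group on 16 of 18 lung arrays, so this fit can hardly separate them and these signs carry little information. With scanner loess Gadd45a between lung and forestomach (-0.55) and Bax between liver and forestomach (-0.54) fell below 1.5-fold. With the replicate block, pairing the tissues of a mouse (consensus correlation 0.0261), 5, 5 and 8 members differed at D0 and 0 in the D3 effect, and no call changed. After adjustment, 0 members passed the same-mouse correlation within slides, with scanner loess or without the 2 mice farthest from the median. The D3 effects between lung and the other tissues without mice 17 and 19, chosen after seeing the data, gave 0 members. Signal over background was lowest in forestomach (18.9% to 51.7% of spots well above background), which limits what could be measured there.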
